A study of Homo sapiens with 3 samples.

Results

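The genes described here build the extracellular matrix, anchor cells to it and cut it: collagen chains, laminin chains, integrin subunits, matrix metalloproteinases (MMP), their tissue inhibitors (TIMP), the ADAM and ADAMTS proteinases, and the matrix genes SPARC, LUM and TGFBI. Members were taken from the deposited table by gene symbol: the families by the form of the symbol, and SPARC, LUM and TGFBI by name. This gave 113 of 15488 genes. The choice was made with earlier results of these data known. The cells were 22Rv1, an established human prostate cancer line, collected 48 h after transfection. The plasmid, 20 μg in each case, coded for MLPH, either its transcript V1 or its transcript V4. MLPH encodes melanophilin, which couples Rab27a-bearing organelles to myosin Va. The series has 3 samples, 1 per group: V1, V4 and empty vector. The V1 and V4 libraries were compared. The empty-vector group was not analysed here, because the name of 1 count column gives no transfection and matches no single sample. All values below therefore set V4 against V1, and none says how either library stands to untreated cells.

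The V1 library held 9253399 counts and the V4 library 9609381. CPM values are counts scaled to these totals. With 1 library per group there is no replicate check and no test across samples, and each ratio describes these 2 libraries, not the conditions. Every 95% CI is an exact interval of counting error (Clopper-Pearson for ratios), which does not cover differences between cultures or library preparations, or amplified copies of 1 molecule. A gene was kept where its CPM averaged 1 or more over both libraries. It was called at a ratio of 2 or more in either direction, computed with a prior count of 2, and with an interval that excluded 1. Folds printed for single genes carry no prior. A fold against 0 counts was taken against a floor of 3 counts, which is 0.324 CPM for V1 and 0.312 CPM for V4. MLPH itself had 7219 and 7773 counts. Both plasmids carry MLPH, so its level does not check the labels.

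As background, collagens are triple helices of 3 chains that may come from different genes, and types I and III form the fibrils of connective tissue while type IV forms the network of basement membranes. Laminins join 1 alpha, 1 beta and 1 gamma chain, and integrins pair 1 alpha with 1 beta subunit to bind these proteins at the cell surface. MMPs are zinc proteinases that degrade matrix, TIMPs block them, ADAMs shed membrane proteins, and ADAMTS enzymes process secreted matrix proteins.

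Of the 113 members, 57 were kept, 45 had counts below the filter and 11 had 0 counts in both libraries. Among the 57 kept members, 16 were called lower in the V4 library, against 4.29% of all 8840 kept genes, so that 28.1% of kept members stood on that side. Another 3 were called higher (5.26%, against 2.1% of all kept genes), and 38 were neither. At 10-fold or more, computed like the call with a prior count of 2, 8 members were lower, which is 14.0% of kept members, against 0.724% of all kept genes. Those 8 made up 12.5% of the 64 genes that far apart, while the members made up 0.645% of kept genes. SPARC and TGFBI, taken by name, are among the 8. All 8 were below 1 CPM in the V4 library and passed the filter through their V1 counts. The same holds for ITGB3 and MMP21, called lower, while ADAM22, called higher, passed through its V4 counts. The gap in shares came from a minority of members. The median log2 ratio of kept members was -0.09, against -0.00 over all kept genes, with 30 members below 0 and 27 above.

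**Figure D1:**
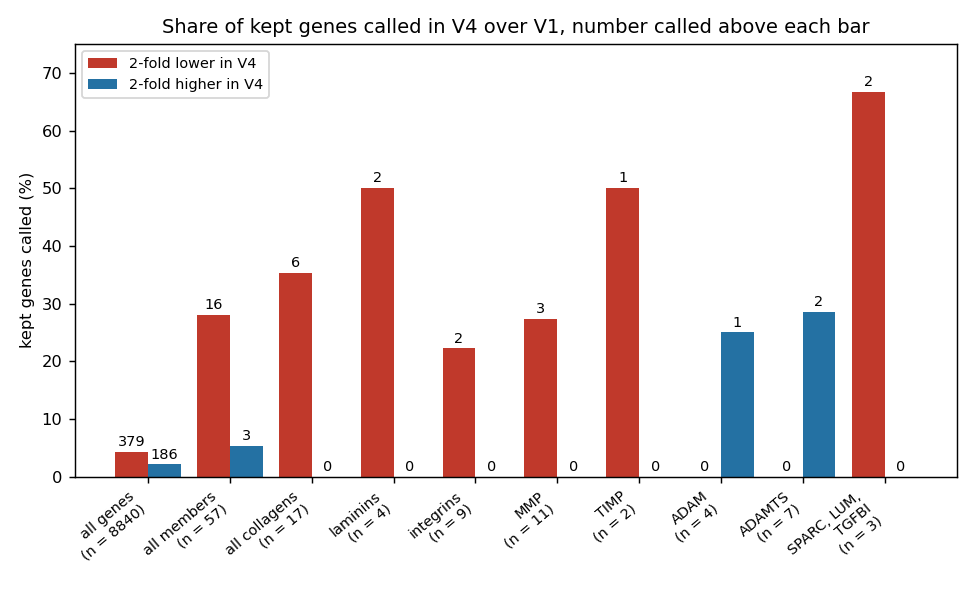
Share of kept genes called at least 2-fold lower (red) or higher (blue) in the V4 than in the V1 library, on the vertical axis in percent, for all kept genes, all kept members and each family. The number above a bar is the count of called genes. The 57 members have 16 called lower and 3 higher, and the ADAM and ADAMTS families have 0 called lower.

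Calls were also counted by level. Among the 25 members with a mean of 10 CPM or more, 6 were lower (24%, against 1.11% of 5233 genes at that level) and 0 higher (against 0.229%). Among the 32 members between 1 and 10 CPM, 10 were lower (31.2%, against 8.90% of 3607 genes) and 3 higher (9.38%, against 4.82%). Nearest to the line on the low side, LAMA5 lay inside it at a log2 ratio of -1.23 and ITGA5 outside it at -0.86. On the high side ADAMTS19 lay inside at 1.01 and MMP16 outside at 0.90.

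The fibrillar collagens split into chains that were close to 0 with V4 and chains with similar counts in both libraries. COL1A2, the alpha 2 chain of type I collagen, had 976 counts with V1 but 4 with V4, 247-fold lower (95% CI 96.3 to 909.8). COL3A1, the chain of type III collagen, had 526 counts against 0, 178-fold lower against the floor, with an interval that reaches down to 144-fold. Per kilobase of its longest transcript, COL1A2 stood at 17.6 CPM with V1, the 11th highest of the 113 members, and at 0.0695 CPM with V4, where it ranked 67th. COL5A2, a chain of the type V collagen that joins type I fibrils, had 876 counts against 969 (V4 over V1 1.09, 95% CI 0.995 to 1.2). The RefSeq gene table (GRCh38.p14) places COL3A1 and COL5A2 next to each other on chromosome 2, so direct neighbours lay on opposite sides of the call. COL5A3, COL11A2 and COL24A1 had 9 to 20 counts in either library, with intervals that included 1.

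Among collagens of basement membranes and microfibrils, 2 pairs of neighbouring genes were lower in the V4 library, COL4A1 with COL4A2 and COL6A1 with COL6A2. The folds within each pair were unequal. COL4A1 had 52 counts against 0, 17.6-fold lower against the floor, with an interval that reaches down to 13.8-fold. Its partner chain COL4A2 had 374 against 84, 4.51-fold lower (95% CI 3.55 to 5.79). COL4A3, a type IV chain of another network, had 97 counts against 86, and its interval included 1. COL6A1 and COL6A2, chains of the beaded-filament collagen VI, are neighbours as well. COL6A1 had 137 counts against 43, 3.23-fold lower (95% CI 2.28 to 4.66), and COL6A2 had 94 against 2, 47.7-fold lower (95% CI 12.8 to 399). The counting intervals of the partners do not overlap in either pair. They rest on 0 counts of COL4A1 and 2 of COL6A2 with V4, and do not cover differences between cultures.

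COL4A1 and COL4A2 are read in opposite directions from start sites that lie 126 bases apart. The bases between them are shown because both genes of this pair were lower, with the GC box in capitals (RefSeq, GRCh38.p14, chr13:110307158-110307283, plus strand).
COL4A1 and COL4A2: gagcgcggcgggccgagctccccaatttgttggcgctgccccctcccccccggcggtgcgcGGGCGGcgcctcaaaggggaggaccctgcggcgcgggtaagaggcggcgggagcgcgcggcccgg
This stretch holds 1 GC box and 0 matches to TATAAA.

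The 6 kept collagens outside types IV and VI and the fibrillar group were not called. COL7A1, which forms the anchoring fibrils under epithelia, was the most abundant collagen per kilobase, at 26.3 CPM with V1 and 27.2 with V4, from 2254 and 2426 counts. COL9A3, a chain that decorates cartilage fibrils, had 533 counts against 468 (V4 over V1 0.866, 95% CI 0.763 to 0.982). COL28A1 had 142 counts against 161. COL17A1, the hemidesmosome collagen, had 18 against 17, and COL20A1 and COL25A1 had 16 to 38 counts. Below the filter, COL18A1, a basement membrane collagen, had 16 counts against 2 (8.11-fold lower, 95% CI 1.91 to 72.7), and COL15A1 had 11 against 3, with an interval that included 1. COL14A1, COL19A1 and COL21A1 had 1 to 13 counts. The sum over all 32 collagen rows went from 6227 counts with V1 to 4395 with V4.

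**Figure D2:**
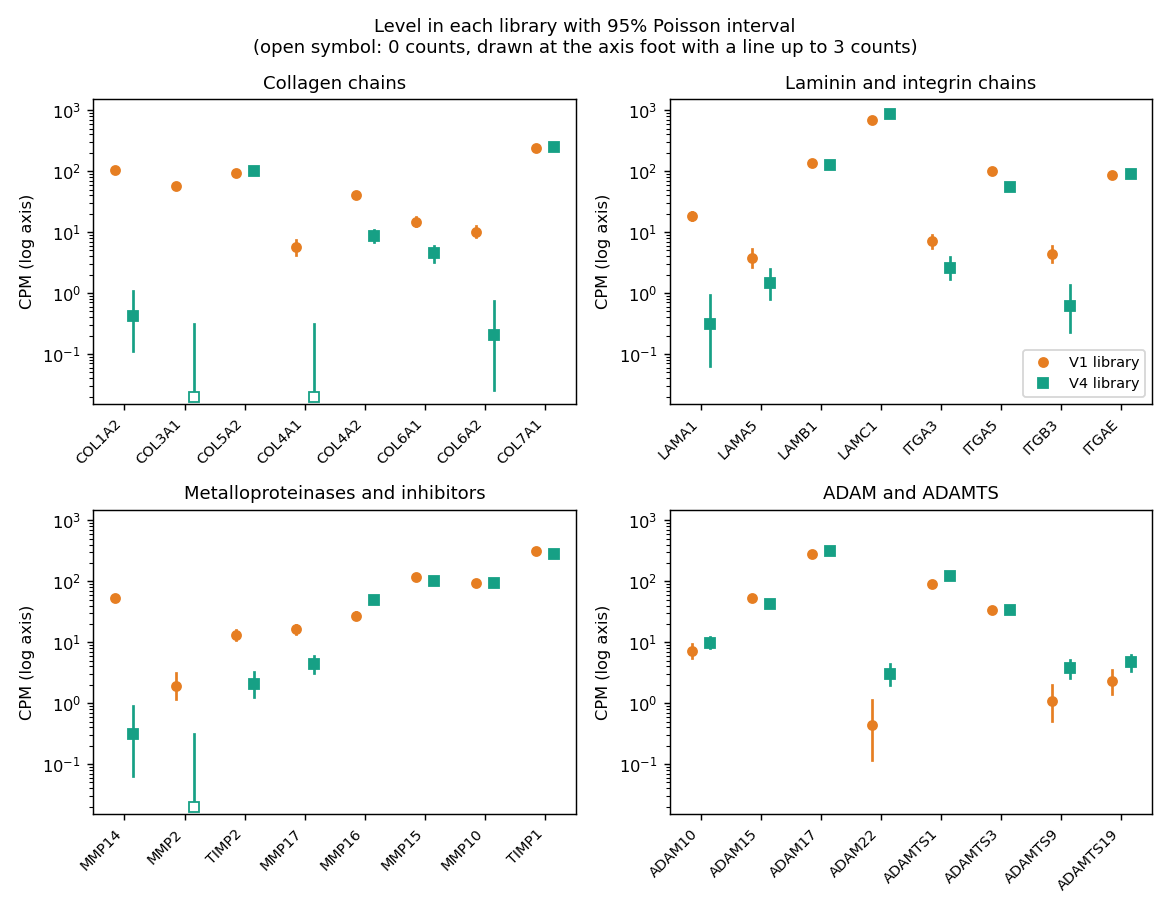
Level of chosen members in the V1 (orange circles) and V4 (green squares) libraries, in CPM on a log axis, with 95% Poisson intervals of counting error. COL1A2, COL3A1, LAMA1 and MMP14 lie more than a log unit lower in the V4 library, while COL5A2, COL7A1, LAMB1, MMP10, TIMP1 and ADAM17 lie side by side.

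Laminin alpha chains were lower, and the beta and gamma chains that complete the trimer were not. LAMA1, the alpha chain of laminin-111, had 172 counts against 3, down 58.1-fold with V4 (95% CI 19.6 to 285). LAMA5, the alpha chain of laminin-511, had 35 counts against 14, 2.54-fold lower (95% CI 1.33 to 5.10), and was not called with a prior count of 8 (log2 ratio -0.98). LAMB1 had 1243 counts against 1236. LAMC1, the gamma 1 chain, was the second most abundant member per kilobase in both libraries, with 6366 counts against 8346 (V4 over V1 1.29, 95% CI 1.25 to 1.34). Both alpha chains were below 1.8 CPM per kilobase in the V1 library, against 23.3 for LAMB1 and 87.2 for LAMC1. LAMC3, below the filter, had 6 counts against 2.

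Among integrins, 2 of 9 kept subunits were called, both lower in the V4 library (22.2%, against 4.29% of all kept genes). ITGB3, the beta 3 subunit of vitronectin receptors, had 41 counts against 6, 6.93-fold lower (95% CI 2.92 to 20.0). ITGA3, a laminin receptor subunit, had 65 against 25, 2.64-fold lower (95% CI 1.64 to 4.37). ITGA5, the fibronectin receptor subunit, was not called but had 947 counts against 527, 1.82-fold lower (95% CI 1.64 to 2.03). In the other direction, ITGA1, a collagen receptor subunit, had 254 counts against 364 (V4 over V1 1.41, 95% CI 1.2 to 1.67), and ITGA9 had 30 against 54 (V4 over V1 1.78, 95% CI 1.12 to 2.87). ITGAE, the subunit that binds E-cadherin through its beta 7 partner, was the most abundant integrin per kilobase, with 787 counts against 850. ITGA2, ITGA4 and ITGA10 had 9 to 41 counts and intervals that included 1. Below the filter, ITGA7 had 3 counts against 12 (V4 over V1 3.95, 95% CI 1.07 to 21.8), while ITGB7 and ITGB8 had 4 to 11 counts.

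A count near 0 was not read as absence. ITGAV, the alpha partner of the beta 3 subunit, was listed at 0 and 1 counts, and ADAM9 likewise. Genes that cells of this kind commonly express were uneven too: GAPDH had 1125 and 1199 counts, while ACTB had 15213 and 12366. Both were picked with their values in view. The sources used here do not say how reads that match several features were assigned.

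Of the 11 kept MMPs, 3 were lower in the V4 library (27.3%, against 4.29% of all kept genes) and 0 higher (against 2.1%). MMP14, the membrane-bound MT1-MMP that cuts fibrillar collagen, had 496 counts against 3, 168-fold lower (95% CI 57.0 to 816). MMP17, another membrane-bound member, had 151 against 42, 3.65-fold lower (95% CI 2.57 to 5.26), and MMP21 had 20 against 2, 10.1-fold lower (95% CI 2.46 to 89.5). MMP16, also membrane-bound, lay on the other side with 254 counts against 482 (V4 over V1 1.87, 95% CI 1.60 to 2.19), short of the call. MMP15, a further membrane-bound relative, had 1073 counts against 977, and MMP24 259 against 265. The membrane-bound enzymes thus spanned both directions. MMP25 had 24 counts against 17.

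TIMP2 was called lower along with MMP14, and the gelatinase gene MMP2 had counts in the V1 library alone. As background, TIMP2 bridges MMP14 and the MMP2 proenzyme at the cell surface. TIMP2 had 123 counts against 20, 6.24-fold lower (95% CI 3.87 to 10.6). MMP2, which was below the filter, had 18 counts against 0, 6.08-fold lower against the floor, with an interval that reaches down to 4.46-fold. TIMP1, the most abundant member per kilobase, had 2897 counts against 2670 (V4 over V1 0.909, 95% CI 0.862 to 0.958). TIMP3, a matrix-bound inhibitor, had 9 counts against 1 and TIMP4 9 against 2, both below the filter, with an interval that excluded 1 for TIMP3 (9.12-fold lower, 1.26 to 400) and included it for TIMP4.

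Of the secreted MMPs in the chromosome 11 cluster, 3 were kept and 0 called, against 4.29% of all kept genes lower and 2.1% higher. MMP10, stromelysin 2, was the third most abundant member per kilobase, at 53.7 CPM with V1 and 54.2 with V4, from 874 and 916 counts (ratio 1.03, 95% CI 0.941 to 1.14). Its direct neighbour in the RefSeq table, the collagenase MMP1, had 64 counts against 46, and next to that the stromelysin MMP3 had 34 against 29. Both intervals included 1. MMP8, MMP12, MMP13, MMP20 and MMP27 of the cluster had 0 to 5 counts. Elsewhere MMP19 had 72 counts against 82, MMP11 5 in each library, and the gelatinase MMP9 5 against 0, with an interval that included 1.

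The bases upstream of the start sites are shown for 2 members with large gaps, MMP14 and COL6A2, and for MMP10 without one (RefSeq, GRCh38.p14, 250 bases before each start, read on the gene's strand). Capitals mark matches on either strand to TATAAA or GGGCGG. The windows are chr14:22836335-22836584 (plus), chr21:46097862-46098111 (plus) and chr11:102780629-102780878 (minus).
MMP14: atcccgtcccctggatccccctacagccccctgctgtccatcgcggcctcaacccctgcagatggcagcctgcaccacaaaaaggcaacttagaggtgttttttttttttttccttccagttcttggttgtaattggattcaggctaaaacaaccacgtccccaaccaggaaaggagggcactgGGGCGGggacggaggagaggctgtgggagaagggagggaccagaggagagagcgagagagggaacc
COL6A2: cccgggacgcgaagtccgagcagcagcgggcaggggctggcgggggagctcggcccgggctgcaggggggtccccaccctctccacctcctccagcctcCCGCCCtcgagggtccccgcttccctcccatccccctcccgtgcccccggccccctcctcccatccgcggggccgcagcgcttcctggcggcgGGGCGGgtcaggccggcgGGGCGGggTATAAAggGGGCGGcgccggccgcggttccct
MMP10: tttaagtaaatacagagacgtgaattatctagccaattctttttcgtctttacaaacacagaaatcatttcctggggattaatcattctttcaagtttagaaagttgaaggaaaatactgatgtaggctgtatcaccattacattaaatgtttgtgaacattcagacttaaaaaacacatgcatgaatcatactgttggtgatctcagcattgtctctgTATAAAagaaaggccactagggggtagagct
MMP14 has 1 GC box and 0 matches to TATAAA, COL6A2 has 4 GC boxes and a TATAAA 32 bases before the start, and MMP10 has 0 GC boxes and a TATAAA 31 bases before the start. COL6A2 and MMP10 thus hold that motif at nearly the same place. The windows were picked by ratio, and a link between these motifs and the ratios was not tested.

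A promoter window was found for 37 of the 57 kept members, and for 8 of the 16 called lower. COL1A2, COL3A1 and LAMA1 are among those without a window. The GC box GGGCGG lay in 6 of 8 windows of members lower in the V4 library and in 19 of 29 windows of the others, against 42.3% of 27305 RefSeq windows of this length. TATAAA lay in 2 of 8 and 3 of 29, against 11.1%. The AP-1 motif TGAGTCA lay in 0 of 37, against 4.16%, and an NF-kappaB motif in 1 of 37, COL7A1, against 1.73%. Both strands were searched, and matches to different motifs were counted separately. These matches describe letters in the windows and say nothing of which factors bind there.

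**Figure D3:**
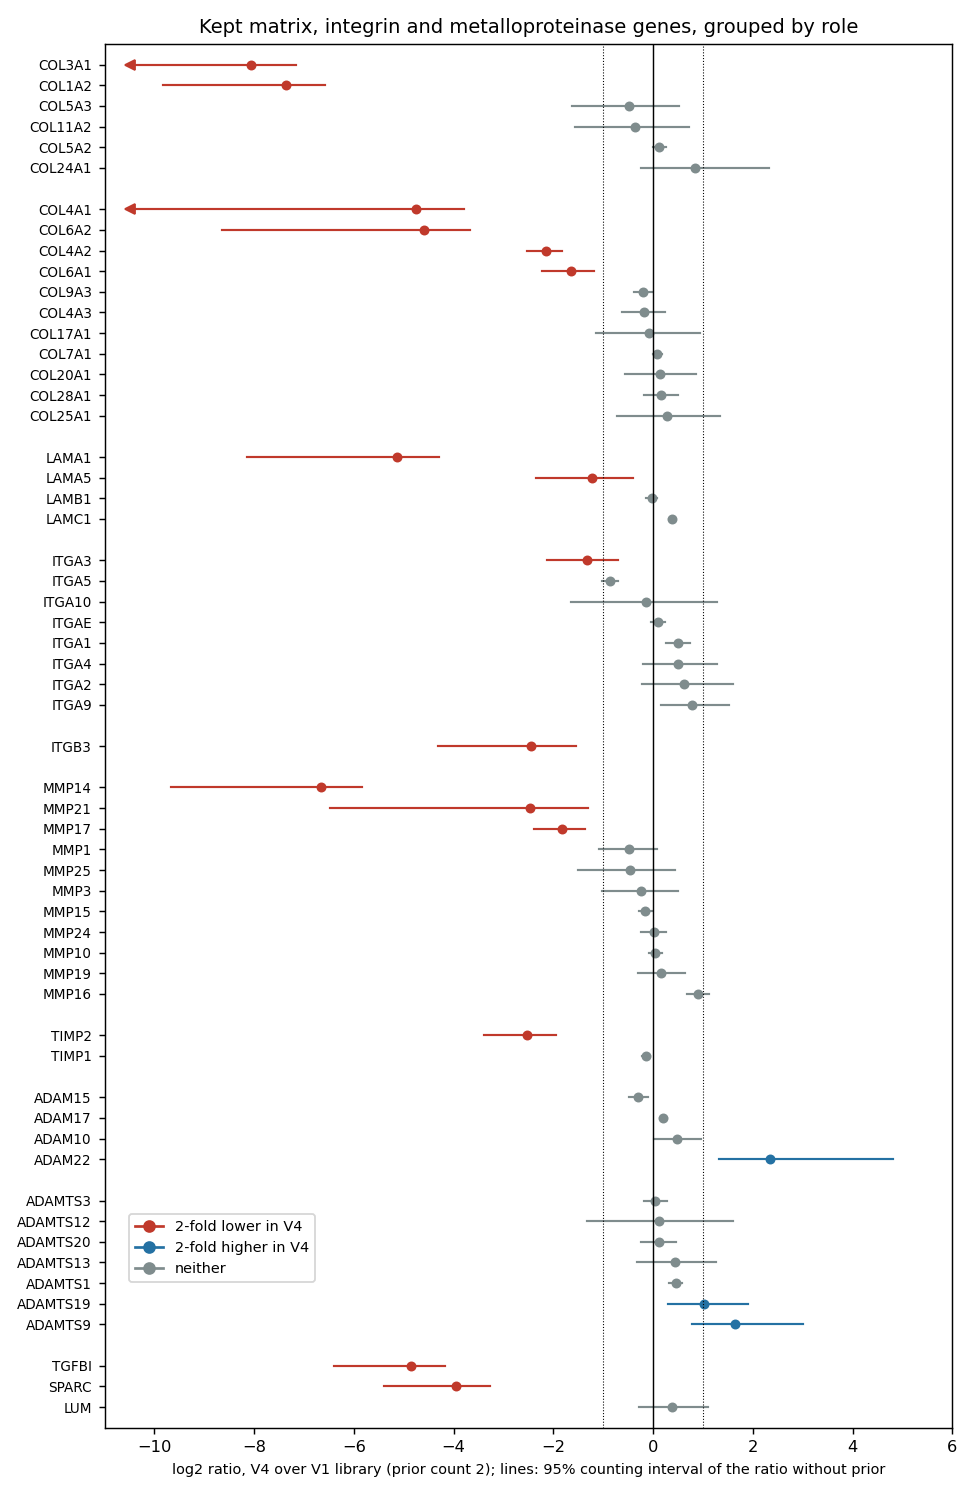
Log2 ratio of V4 over V1 (horizontal axis, prior count of 2) for each of the 57 kept members, grouped by role. Lines are 95% counting intervals of the ratio without a prior, a left arrow marks an interval that runs on to 0, and dotted lines mark 2-fold. The 16 members called lower reach from LAMA5 to COL3A1, and the 3 called higher are ADAM22, ADAMTS9 and ADAMTS19.

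Most kept ADAM and ADAMTS genes lay on the other side of 0 from most called members. Of 11 kept, 10 had a log2 ratio above 0, as did 4386 of all 8840 kept genes, and the median was 0.44. In the V4 library 3 were called higher (27.3%, against 2.1% of all kept genes) and 0 lower (against 4.29%). The 3 lay between 1 and 10 CPM, where 4.82% of all genes were called higher. ADAM22, a synaptic family member without protease activity, had 4 counts against 29 (V4 over V1 7.15, 95% CI 2.51 to 28.0). ADAMTS9, which cleaves proteoglycans such as versican, had 10 against 36 (V4 over V1 3.55, 95% CI 1.73 to 8.02), and ADAMTS19 21 against 45 (V4 over V1 2.11, 95% CI 1.23 to 3.74). These 3 had low counts, and ADAMTS19 lost its call when libraries were scaled by total counts (log2 ratio 0.98) or with a prior count of 8 (0.85).

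The abundant sheddase ADAM17, which releases tumour necrosis factor from the membrane, had 2610 counts against 3057 (V4 over V1 1.16, 95% CI 1.10 to 1.22). ADAM10, the sheddase of Notch receptors, had 67 against 95 (V4 over V1 1.40, 95% CI 1.01 to 1.94), and ADAM15 495 against 409 (V4 over V1 0.815, 95% CI 0.713 to 0.931). ADAMTS1 had 831 counts against 1157 (V4 over V1 1.37, 95% CI 1.26 to 1.5). ADAMTS3, which trims the ends of procollagen, had 312 against 327 and its interval included 1. ADAMTS20 had 137 counts against 150, and ADAMTS12 and ADAMTS13 9 to 35. Below the filter, ADAM8, ADAMTS6 and ADAMTS16 had 0 to 11 counts, with intervals that included 1. Of the 8 ADAMTS genes below the filter, all but ADAMTS10 and ADAMTS18 had more counts in the V1 library, none above 8.

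The 2 secreted matrix proteins SPARC and TGFBI were far lower in the V4 library, and LUM was not. SPARC, a collagen-binding matricellular protein, had 167 counts against 9, 18.8-fold lower (95% CI 9.68 to 41.9). TGFBI, a matrix protein induced by transforming growth factor beta, had 284 against 8, 36.0-fold lower (95% CI 18.0 to 84.2). LUM, the fibril-binding proteoglycan lumican, had 33 against 44 (V4 over V1 1.32, 95% CI 0.818 to 2.13).

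Genes that work beside the members were read from 6 lists, whose counts stand beside 4.29% of all kept genes called lower and 2.1% called higher. In collagen biosynthesis, 5 of 18 kept genes (27.8%) were lower in the V4 library and 0 higher, with a median log2 ratio of -0.12. With a prior count of 8, 2 were lower, against 3% of all kept genes. With a filter at 10 CPM 2 were lower too, from fewer genes tested, against 1.11% of all genes at that level. At 3-fold 0 were lower, against 2.02% of all kept genes. The 5 were LOXL2, a collagen cross-linking oxidase (383 against 169 counts, 2.30-fold lower, 95% CI 1.91 to 2.77), its relative LOX (23 against 10), P4HA2, a prolyl hydroxylase subunit (19 against 6), and the procollagen proteinase enhancers PCOLCE (102 against 49) and PCOLCE2 (139 against 62). P4HB, the beta subunit of the prolyl hydroxylase, had 12342 counts against 12100 (V4 over V1 0.967, 95% CI 0.943 to 0.992). The list median of -0.12 stood beside -0.09 over the kept members.

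Other matrix proteins had 3 of 16 kept genes lower (18.8%, against 4.29% of all kept genes) and 1 higher (6.25%, against 2.1%), with a median of -0.12. At 3-fold 1 was lower and 0 higher, against 2.02% and 0.43% of all kept genes. With a filter at 10 CPM 1 was lower and 0 higher, against 1.11% and 0.229% of all genes at that level. FBN1, which encodes fibrillin 1, had 107 counts against 28, 3.87-fold lower (95% CI 2.54 to 6.10), THBS2, a thrombospondin, 66 against 21, and CYR61, a matricellular growth regulator, 874 against 319. FBN2, the relative of FBN1, had 21 against 45 (V4 over V1 2.11, 95% CI 1.23 to 3.74), and like ADAMTS19, which has the same counts, it was not called with total-count scaling or a prior count of 8. THBS1, the relative of THBS2, had 1905 against 2371 (V4 over V1 1.23, 95% CI 1.16 to 1.30). The fibronectin gene FN1 was listed at 0 in both libraries.

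Among matrix receptors other than integrins, 3 of 10 kept genes were lower (30%, against 4.29% of all kept genes) and 0 higher, with a median of -0.41. At 3-fold 1 was lower, against 2.02% of all kept genes. MRC2, a receptor that takes up collagen fragments, had 391 counts against 79, 5.02-fold lower (95% CI 3.93 to 6.47). The other two called were CSPG4, with 36 against 11, and the glypican gene GPC1, with 455 against 228. The syndecan gene SDC2 had 42 against 25 and did not pass the call. DDR1, a collagen-binding kinase and the most abundant of the list, was not called either and had 2318 against 1864 (V4 over V1 0.793, 95% CI 0.746 to 0.843).

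In the transforming growth factor beta pathway, 4 of 15 kept genes were lower (26.7%, against 4.29% of all kept genes) and 0 higher, with a median of -0.17. At 3-fold 2 were lower, against 2.02% of all kept genes, and with a filter at 10 CPM 2, against 1.11% of all genes at that level. LTBP2 and LTBP4, related proteins of microfibrils, had 176 against 46 and 53 against 15 counts. SMAD3, a signal transducer, had 35 against 13, and the ligand gene TGFB1 272 against 136, 2.03-fold lower (95% CI 1.64 to 2.51). ID3, the most abundant of the list, had 8181 against 7127 (V4 over V1 0.859, 95% CI 0.832 to 0.887).

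Integrin partners, cytoplasmic proteins and tetraspanins, had 0 of 13 kept genes called in either direction, with a median of -0.30. Of these, TNS3, a tensin, had 82 counts against 46 (1.81-fold lower, 95% CI 1.24 to 2.65), RSU1 224 against 157, CIB1 223 against 171, and the tetraspanin CD81 1730 against 1428, while CD9 had 1646 against 1669. In the plasmin and other proteinase list 1 of 13 was lower (7.69%, against 4.29% of all kept genes) and 0 higher, with a median of -0.15. The 1 called at 2-fold was SERPINE2, an inhibitor of thrombin and urokinase (240 against 106, 2.30-fold lower, 95% CI 1.82 to 2.91). At 3-fold 0 were lower, against 2.02% of all kept genes. Of the rest of that list, SERPINF1 had 44 counts against 24, CTSK 243 against 186, SPINT2 2033 against 1571, and CTSD, the cathepsin D gene and the most abundant of the list, 11180 against 10218.

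Markers of the line and of other cells were read beside these values. Of 6 measured markers of 22Rv1 and luminal prostate cells, 0 were called, and their summed level was 1061 CPM with V1 and 1144 with V4. CDH1, the E-cadherin gene, had 6389 counts against 8211 (V4 over V1 1.27, 95% CI 1.23 to 1.31), and without it the sum was 371 CPM against 289.6. The luminal keratin gene KRT8 had 2085 counts against 1636 (V4 over V1 0.774, 95% CI 0.725 to 0.826), HOXB13 621 against 536 and STEAP1 718 against 596, each with an interval below 1. KLK2 had 8 and 13 counts and TMPRSS2 was listed at 1 and 2. Of 9 measured fibroblast markers, 6 are members themselves, so their values only repeat those above. The summed level of all 9 went from 193 CPM to 9.68 CPM, from 1789 and 93 counts. The 3 that are not members gave 20 of these counts with V1 and 0 with V4. LUM, also on this list, had 33 against 44 and was not lower. The 3 that are not members were below the filter. FAP had 14 counts against 0, 4.73-fold lower against the floor, with an interval that reaches down to 3.36-fold. PDGFRB had 6 against 0, 2.03-fold lower against the floor, with an interval that reaches down to 1.19-fold, and THY1 had 0 in both.

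A further list held genes known from other, mesenchymal-type carcinoma lines. Of 7 measured, 6 were kept and 4 of these were called lower in the V4 library (66.7%, against 4.29% of all kept genes). The summed level of the list went from 593 CPM to 272 CPM. UCHL1 had 1933 counts against 34, KRT7 306 against 32, ANXA1 763 against 234 and CAV1 24 against 5, while CAV2, below the filter, had 9 against 0. LGALS1, with 2432 against 2279, and CD44, with 22 against 28, were not called. UCHL1 and KRT7 were put on that list with their ratios in these data known, and without them 2 of 4 kept genes were lower and the sum went from 351 CPM to 265 CPM. Leukocyte markers summed to 10.0 CPM and 6.76 CPM, with PTPRC and CD3E at 0 in both libraries. Endothelial markers summed to 0.108 and 1.14 CPM, and basal epithelial markers to 3.03 and 5.20 CPM. In bulk RNA, fewer cells of a type and less RNA per cell cannot be told apart, and the part of other cells in the ratios of the members was not tested.

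**Figure D4:**
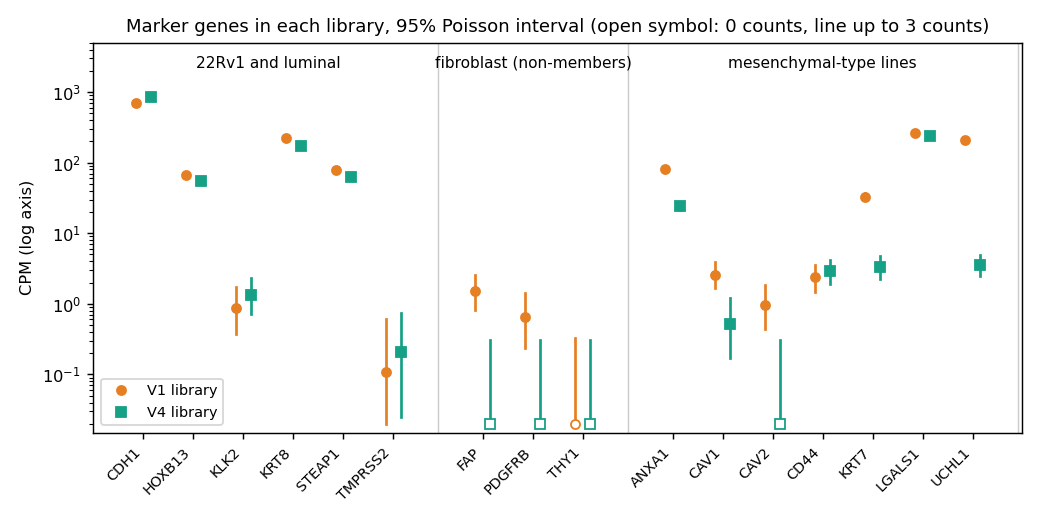
Marker genes in the V1 (orange circles) and V4 (green squares) libraries, in CPM on a log axis with 95% Poisson intervals. CDH1 lies slightly higher and KRT8 and HOXB13 slightly lower in the V4 library, short of the call, while UCHL1, KRT7 and ANXA1 are called lower and FAP and PDGFRB are at 0 there.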

How the data were processed

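Poly(A) RNA was sequenced as 150 bp single-end reads, per the labels' protocols. The authors deposited raw counts of reads for each gene symbol. Their genome build was hg19, per the submitters' processing notes. Which aligner, counter, annotation and strand setting they used, and whether repeat runs were added up, is not given in the sources. A column was used where its name matched 1 sample title, which left 1 column unused. The planned V1 and V4 comparisons with the empty vector could therefore not be made, and filter and scaling rest on the V1 and V4 libraries.

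The table has 15512 rows. Counts of 21 symbols on several rows were summed, and 22 rows with a calendar date for a symbol were kept without a name. Of all counts, 99.8% (V1) and 99.9% (V4) lay in the 8840 kept genes. Libraries were scaled by TMM in edgeR 4.0.16 (factors 1.01 and 0.988). Intervals came from scipy 1.17.1. Transcript lengths are those of the longest transcript in GENCODE 29, found for all 113 members. Promoter windows and gene order are from RefSeq on GRCh38.p14, which is not the build of the counts.

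Named were all called members, members with an interval excluding 1 at 1.5-fold, the 4 most abundant per kilobase of each of 10 role groups, members below the filter with 5 or more counts in 1 library, and, for each pathway list, up to 4 genes with the largest ratio whose interval excluded 1, plus the most abundant. The members and lists were chosen with earlier results of these data known. Alternatives were DESeq2 1.42.0 size factors, total-count and upper-quartile scaling, other filters, prior counts and thresholds. Some genes of the member and marker lists are not reported here. Marker sums without CDH1, or without UCHL1 and KRT7, were added after seeing the data.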

Additional observations from a re-analysis of the deposited data

How the results depend on the processing

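The count of members lower in the V4 library, 16 at 2-fold, stayed between 14 and 19 under the 3 other scalings, a smaller (0.5) or larger (8) prior count, a threshold of 1.5-fold or 3-fold, no interval condition and no filter. At 3-fold, 14 of 57 stood beside 2.02% of all kept genes, at 1.5-fold 17 beside 7.1%, and with a prior of 8, 15 beside 3%. Without a filter 19 of 102 members were lower, against 4.24% of 13717 genes. Under the other scalings, a prior of 0.5 and no interval condition, 16 of 57 stood beside 4.29% to 4.55%. With a filter at 10 CPM the count was 6 of 25 members tested (against 1.11% of 5233 genes), with 0 higher (against 0.229%). The median log2 ratio of members was then 0.0107 in place of -0.09, a change of sign. The count higher, 3 of 57, was 5 of 57 at 1.5-fold, where 5.5% of all kept genes were higher and 7.1% lower. Without the interval condition or with DESeq2 factors, all 19 called members kept their call. Of 22 named members under 5 settings of scaling or prior, 0 of 110 log2 ratios changed sign and 6 left their interval, all 6 when the prior was 8, which by construction pulls small counts together. With the filter at 10 CPM, the median of the transforming growth factor beta list turned from -0.17 to 0.0478. With 1 library per group, leaving out a replicate was not possible. No paired analysis was possible because each group has 1 sample. Depth limits the 45 members below the filter, whose counts allow wide ratios.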
